A study of Homo sapiens with 8 samples.

Results

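The genes described here are the core components of the RAS-MAPK pathway: RAS family GTPases, RAF, MEK and ERK kinases, the adaptors and exchange factors that load RAS, the proteins that switch it off, scaffolds, SRC family kinases and RSK kinases. The list held 31 genes, chosen by symbol and with earlier results of these data known. Of these, 28 had a probe set with a single gene symbol, and 3 genes of the list were not analysed here. Each gene was read from its probe set with the highest mean over the 8 arrays, and 28 of the 18132 genes so represented in all were members. The arrays held RNA of H3122, a human lung adenocarcinoma cell line driven by the EML4-ALK fusion kinase, and of 2 derivatives resistant to ceritinib, H3122-LR2 and H3122-LR3 (LR2 and LR3 below). All 3 lines were grown in serum-containing medium. Each was measured without an agent and after 6 h in 1000 nM ceritinib, and parental and LR2 cells also after 6 h in 1000 nM crizotinib, so that parental cells and LR2 have 3 arrays each and LR3 has 2. Crizotinib and ceritinib are both inhibitors of the ALK kinase. Every condition was 1 array, and nothing in the labels says that arrays of a line came from separate cultures. In the line and agent comparisons, p-values set a difference only against how far these arrays depart from a sum of line and agent effects. That spread may be technical, and it also holds any difference between lines in their response to an agent. For each gene it was drawn towards the spread of all tested genes. The series' title names overexpression of the receptor FGFR3 in resistance to ALK inhibitors; its signal was 7.25 to 7.68 in the parental arrays, 7.65 to 7.96 in LR2 and 8.48 to 8.70 in LR3, in log2 units. How the resistant lines were derived, and whether each is 1 clone, is not given in the labels.

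In this pathway an activated receptor or fusion kinase is bound by adaptors such as GRB2 and SHC1, which bring the exchange factors SOS1 and SOS2 to the membrane, where they load RAS with GTP. GTP-bound RAS recruits RAF, RAF phosphorylates the MEK kinases, and MEK phosphorylates ERK, which acts on RSK kinases and on transcription factors. GTPase-activating proteins return RAS to its inactive state, and ERK induces phosphatases and Sprouty proteins that damp the pathway. In lung adenocarcinomas with an ALK fusion, much of the signal of the fusion kinase runs through this route. The arrays measured transcripts, not phosphorylation or GTP loading.

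Promoter sequences are shown for pairs of members chosen after their values were seen. The pairs are SOS1 and SOS2, the exchange factors that had higher signals with both inhibitors, and RRAS2 and YES1, which were lower in LR3. PEBP1 was also higher with both inhibitors and SOS2 also lower in LR3, so neither pair holds all such members. Of the members' differences with an inhibitor, only that of SOS1 with crizotinib passed the threshold given below. The sequences are RefSeq windows of GRCh38.p14, 250 bases before to 50 bases after a transcription start, written 5′ to 3′ on the gene's strand. Capitals mark a GC box (GGGCGG, the core of an SP1 site) or a CCAAT box (CCAAT) found on either strand. SOS1 has 2 listed starts, at chr2:39121002-39121301 and chr2:39124819-39125118 (minus strand), and both are shown.
SOS1 (chr2:39121002-39121301): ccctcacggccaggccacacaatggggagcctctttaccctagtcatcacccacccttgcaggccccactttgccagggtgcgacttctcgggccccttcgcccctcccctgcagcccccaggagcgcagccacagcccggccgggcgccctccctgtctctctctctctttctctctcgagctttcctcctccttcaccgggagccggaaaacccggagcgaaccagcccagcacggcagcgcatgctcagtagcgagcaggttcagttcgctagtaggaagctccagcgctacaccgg
SOS1 (chr2:39124819-39125118): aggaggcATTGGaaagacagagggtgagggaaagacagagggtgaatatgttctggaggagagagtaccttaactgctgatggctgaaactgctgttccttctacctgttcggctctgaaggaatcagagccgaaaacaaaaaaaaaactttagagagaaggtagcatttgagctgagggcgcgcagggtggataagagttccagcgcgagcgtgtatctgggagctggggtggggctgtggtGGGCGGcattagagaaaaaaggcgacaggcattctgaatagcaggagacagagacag
SOS2 (chr14:50231529-50231828, minus strand): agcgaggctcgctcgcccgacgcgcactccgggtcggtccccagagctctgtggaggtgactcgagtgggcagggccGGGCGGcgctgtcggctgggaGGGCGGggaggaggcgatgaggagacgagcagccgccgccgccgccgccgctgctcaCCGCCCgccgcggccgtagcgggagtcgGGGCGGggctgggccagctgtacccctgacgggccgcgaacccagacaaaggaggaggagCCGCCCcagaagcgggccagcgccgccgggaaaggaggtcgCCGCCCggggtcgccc
RRAS2 (chr11:14358418-14358717, minus strand, the most GC-rich of 4 starts): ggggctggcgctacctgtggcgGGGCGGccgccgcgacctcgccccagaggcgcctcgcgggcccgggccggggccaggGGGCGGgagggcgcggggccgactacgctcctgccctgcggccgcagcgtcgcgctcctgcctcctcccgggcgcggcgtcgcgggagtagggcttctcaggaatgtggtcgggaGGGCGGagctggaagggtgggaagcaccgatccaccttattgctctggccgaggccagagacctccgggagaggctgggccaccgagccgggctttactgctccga
YES1 (chr18:812193-812492, minus strand): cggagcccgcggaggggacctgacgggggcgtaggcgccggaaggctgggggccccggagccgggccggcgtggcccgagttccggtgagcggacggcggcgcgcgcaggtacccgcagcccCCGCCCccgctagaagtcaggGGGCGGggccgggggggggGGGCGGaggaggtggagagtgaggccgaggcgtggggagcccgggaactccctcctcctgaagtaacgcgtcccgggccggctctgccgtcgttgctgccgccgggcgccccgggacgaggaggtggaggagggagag
The SOS2 window held 6 GC boxes, and those of RRAS2 and YES1 held 3 each. One SOS1 window held no match to any motif searched, and the other held 1 GC box and 1 CCAAT box. GC content was 65.7% and 51% in the SOS1 windows, 77.3% in SOS2, 75.7% in RRAS2 and 78.7% in YES1, against 57.5% over all promoters of the table. Of the 28 measured members, 22 had an entry, with 42 starts in all. GC boxes were in 27 of those 42 windows (64.3%) and in 45% of the 35116 windows of all genes. A CCAAT box was in 10 of the 42 (23.8%) and in 34.6% of all. Of 4 further motifs searched on both strands, the ETS site CCGGAAGT was in 2 member windows (4.76%, against 4.14% of all), the AP-1 site TGACTCA in 3 (7.14%, against 4.95%), the CRE TGACGTCA in 1 (2.38%, against 1.85%) and the FOXO site GTAAACA in 2 (4.76%, against 3.42%). None of the 6 motifs contains another. A match is a stretch of letters and not a measured binding site.

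Markers of epithelial and lung cells were present. All 6 epithelial markers (EPCAM, KRT8, KRT18, KRT19, CDH1 and CLDN4) lay above 5.36, the median of all probe set values and the floor used below, in all 8 arrays, with array means of 12.03 to 12.31. The lung lineage factor NKX2-1 stood at 10.38 to 11.25, the lung protease NAPSA at 6.78 to 7.31 and the surfactant protein SFTPB at 5.40 to 5.58, just above the floor. All 6 fibroblast markers were below the floor in every array, with means of 3.71 to 3.92. Of the 5 leukocyte markers measured, 4 were below it, the pan-leukocyte marker PTPRC at 2.46 to 3.05 among them, and LCP1 was above it in all arrays. Of 6 endothelial markers, CDH5 and KDR were above it in all arrays, VWF in 6, and PECAM1, TEK and EMCN in none. ALK itself had a signal of 7.19 to 7.39 in parental cells, 8.41 to 8.55 in LR2 and 8.09 to 8.10 in LR3. Array medians were 5.31 to 5.36, except in the LR2 array with ceritinib, whose median was 5.46. For members, called differences of LR2 from parental cells are therefore also given without that array. For genes of the other lists they are not. In bulk RNA, fewer cells of a kind and less RNA per cell cannot be told apart.

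A gene was tested when its signal exceeded the floor in at least 2 arrays, which 22 of the 28 measured members did, 20 of them in all 8 arrays. The 6 others were below the floor in every array and were not tested. They were the GTPase MRAS (3.96 to 4.46), the MEK-activating kinase MAP3K8 (4.10 to 4.88), the GTPase-activating proteins RASA2 (4.05 to 5.07) and RASAL2 (4.57 to 4.90), the scaffold KSR1 (3.44 to 3.70) and the SRC family kinase FYN (4.13 to 5.07). GAB1 passed through 3 arrays, both treated parental arrays and LR2 with crizotinib, and GAB2 through 4 arrays, all of LR2 or LR3. Signals of different probe sets are not compared with each other as levels of their genes.

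**Figure D1:**
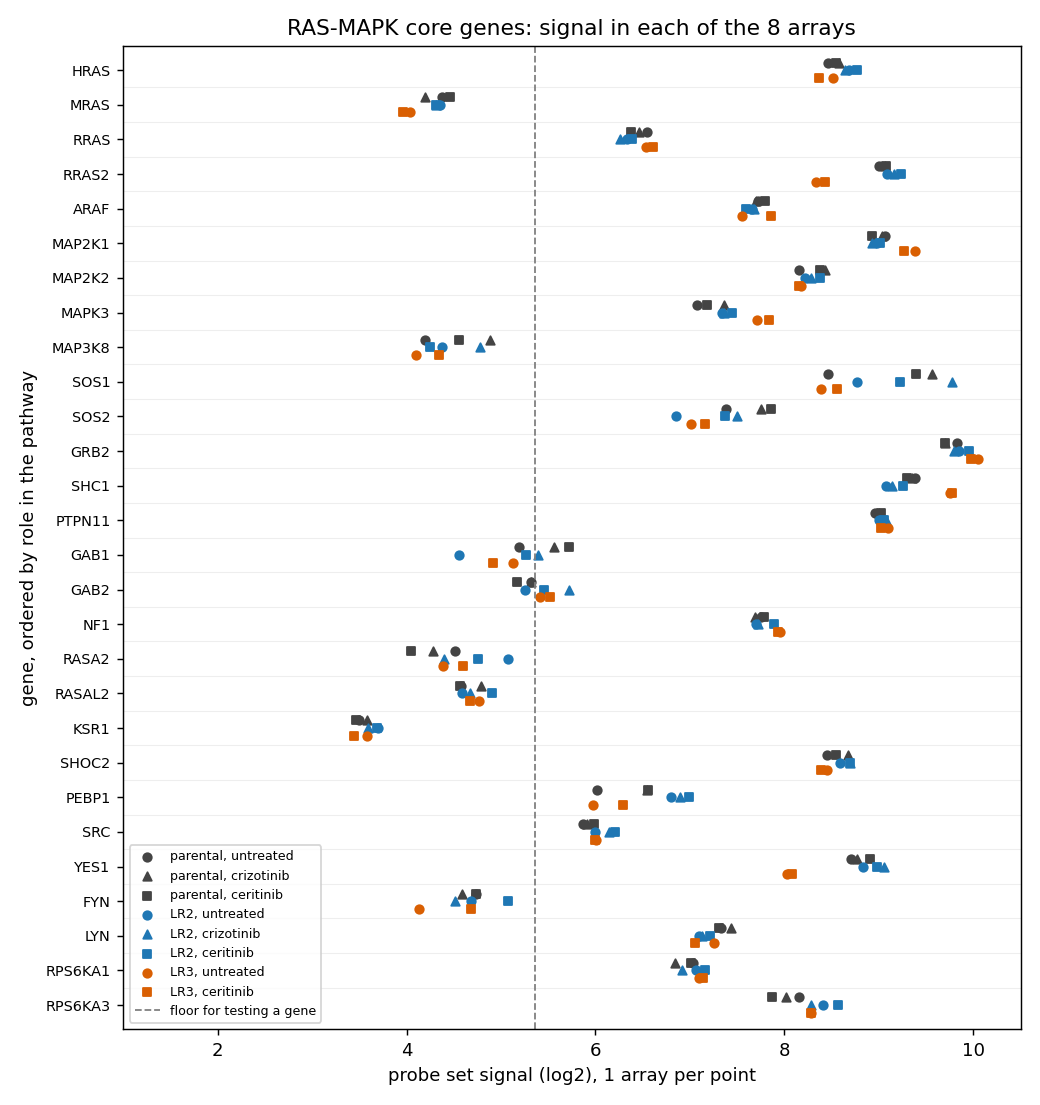
Signal (log2, horizontal axis) of the 28 measured RAS-MAPK core genes, ordered by role on the vertical axis, with 1 point per array; colour gives the line, shape gives the agent and the dashed line is the floor of 5.36. The LR3 points of RRAS2 (8.33 and 8.43) and YES1 (8.03 and 8.08) lie left of all other points of their rows, and those of SHC1 (9.75 and 9.78) lie to the right.

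Most tested core components had no called difference between lines, and those that did differed by less than 2-fold. Differences are in log2 units with limma's standard error after ±, from a model with a term for line and a term for agent over the 8 arrays, and a difference was called where its p, adjusted by Benjamini-Hochberg over the 10527 tested genes, was under 0.05. Between LR2 and parental cells 3 of the 22 tested members were called. PEBP1 and RPS6KA3 rose and SOS2 fell, beside 12.8% of all tested genes called higher and 9.68% called lower. Between LR3 and parental cells 6 members were called, with MAPK3, SHC1 and MAP2K1 higher and YES1, RRAS2 and SOS2 lower (all genes, 9.53% higher and 12.1% lower). Between LR3 and LR2 7 were called: SHC1, MAPK3 and MAP2K1 were higher in LR3, and YES1, RRAS2, PEBP1 and SOS1 were lower (all genes, 7.29% higher and 12.3% lower). In total 9 members were called in at least 1 of these comparisons, each pair of which shares the arrays of 1 line. The share of all tested genes called in at least 1 of them was not counted, so this total has no background to be set against. The members' median difference was 0.09 in LR2 against parental cells, 0.02 in LR3 against parental cells and 0.02 in LR3 against LR2, and over all tested genes it was 0.02, 0.01 and -0.02. Their median absolute difference was 0.15, 0.22 and 0.16, against 0.14, 0.16 and 0.15 over all tested genes. The split of calls over all genes moved with the scaling. Of the genes called in LR2 against parental cells, 57% were higher, and 45.6% after quantile normalization; in LR3 against parental cells 44.1% were higher, and 55.1% after centring each array on its median; in LR3 against LR2 37.2% were higher, and 47.5% and 53.9% under these scalings. The 9 members kept the direction of their calls under both.

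**Figure D2:**
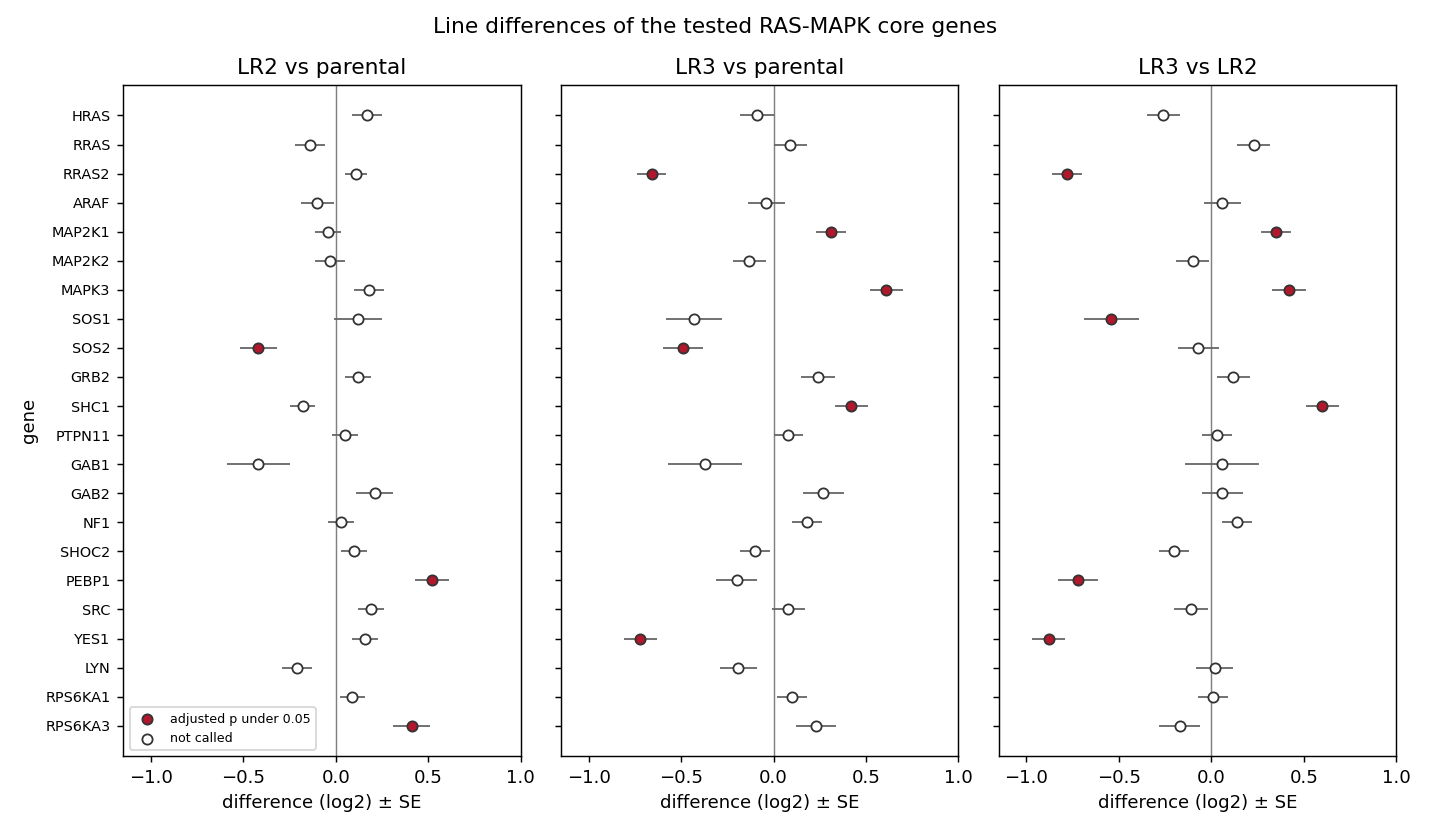
Line differences (log2, horizontal axis) of the 22 tested core genes, with bars for ± 1 limma standard error; filled points are called at an adjusted p under 0.05 over all genes tested and open points are not. In the LR3 panels the filled points of YES1 and RRAS2 lie farthest to the left, at -0.72 and -0.66 against parental cells and at -0.88 and -0.78 against LR2.

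Among the RAS GTPases, RRAS2 (TC21, an R-RAS protein that can activate the same effectors as RAS) fell in LR3. Its signal was 9.00 without an agent, 9.07 with crizotinib and 9.08 with ceritinib in parental cells. In LR2 it was 9.09, 9.16 and 9.23 in the same order, and in LR3 it was 8.33 without an agent and 8.43 with ceritinib. Both LR3 arrays lay below all 6 others, whose range was 9.00 to 9.23. The difference was -0.66 ± 0.08 against parental cells (adjusted p = 0.00124, lower in 2 of 2 agent-matched pairs of arrays) and -0.78 ± 0.08 against LR2 (adjusted p = 0.000652, 2 of 2 pairs), a 1.59-fold and a 1.71-fold lower signal. All 3 RRAS2 probe sets were lower in LR3 than in parental cells, by -0.79 to -0.66. All 3 are of a class that can match several transcripts, so RRAS2 has no value without such probe sets. HRAS, one of the classical RAS proteins, had signals of 8.46 to 8.58 in parental cells, 8.64 to 8.77 in LR2 and 8.37 and 8.51 in LR3. The LR2 arrays of HRAS lay above those of the other lines, but no comparison was called (LR3 against LR2, -0.26 ± 0.09, adjusted p = 0.0912). A second HRAS probe set differed by -0.32 between LR3 and LR2. Averaging all probe sets made this call, in 1 of 17 alternatives. RRAS, the founding R-RAS protein, had signals of 6.38 to 6.55, 6.26 to 6.39 and 6.54 to 6.61 in the 3 lines and was not called (LR3 against LR2, 0.23 ± 0.09, adjusted p = 0.114). This RRAS difference was called in 2 of 17 alternatives, with quantile normalization and with median centring.

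The kinase tier differed between LR3 and the other lines at MEK1 and ERK1. MAPK3, which encodes ERK1, had signals of 7.07 without an agent, 7.36 with crizotinib and 7.18 with ceritinib in parental cells. It had 7.34, 7.36 and 7.45 in LR2, and 7.71 and 7.84 (ceritinib) in LR3. Both LR3 arrays were above all others, and the LR2 arrays overlapped the upper end of the parental ones. MAPK3 rose in LR3 by 0.61 ± 0.09 against parental cells (1.52-fold, adjusted p = 0.00406, 2 of 2 pairs) and by 0.42 ± 0.09 against LR2 (adjusted p = 0.0155, 2 of 2 pairs). It has 1 probe set, of a class that can cross-hybridize with other transcripts. MAP2K1, which encodes MEK1, had signals of 9.07, 9.03 and 8.93 in parental cells without an agent, with crizotinib and with ceritinib. It had 8.98, 8.93 and 9.01 in LR2, and 9.38 and 9.27 in LR3. The LR3 arrays were the highest here too, and MAP2K1 rose by 0.31 ± 0.08 against parental cells (1.24-fold, adjusted p = 0.0343) and by 0.35 ± 0.08 against LR2 (adjusted p = 0.0235), with all 3 probe sets higher by 0.30 to 0.33 against parental cells. The call against parental cells was lost without a filter on low values (adjusted p = 0.0704), without both crizotinib arrays, and without any 1 array other than LR2 with ceritinib (0.26 to 0.34, adjusted p of up to 0.201). The call against LR2 was lost without either crizotinib array, either LR3 array or the untreated LR2 array (0.31 to 0.37, adjusted p of up to 0.158), and that of MAPK3 against LR2 without either LR3 array or the untreated LR2 array (0.41 to 0.47, adjusted p of up to 0.121). MAP2K2, which encodes MEK2, ranged from 8.16 to 8.43 in parental cells, 8.22 to 8.38 in LR2 and 8.16 to 8.18 in LR3, without a called difference. ARAF, the one RAF kinase measured, ranged from 7.70 to 7.80, 7.59 to 7.68 and 7.55 to 7.86, and the difference of LR3 from parental cells was -0.04 ± 0.10 (95% interval -0.27 to 0.20).

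Among the 7 tested adaptors, exchange factors and phosphatases, SHC1 rose and SOS2 fell in LR3. SHC1 is the adaptor that links receptor phosphotyrosines to GRB2. Its signal was 9.38 without an agent, 9.35 with crizotinib and 9.30 with ceritinib in parental cells, 9.08, 9.14 and 9.26 in LR2, and 9.75 and 9.78 (ceritinib) in LR3. The 3 lines did not overlap, with LR2 lowest and LR3 highest. SHC1 rose in LR3 by 0.42 ± 0.09 against parental cells (1.34-fold, adjusted p = 0.0139) and by 0.60 ± 0.09 against LR2 (1.52-fold, adjusted p = 0.00317), in 2 of 2 pairs each, and all 4 of its probe sets were higher than in parental cells, by 0.42 to 0.73. Without either LR3 array the call against parental cells was lost, at 0.41 and 0.43 (adjusted p = 0.1 and 0.0966). The difference of LR2 from parental cells, -0.18 ± 0.07, was not called (adjusted p = 0.117), and its 4 probe sets ranged from -0.18 to 0.12. GRB2, the adaptor that carries SOS proteins to the receptor, had signals of 9.70 to 9.83 in parental cells, 9.80 to 9.95 in LR2 and 9.98 to 10.05 in LR3. The LR3 arrays were highest, and the difference from parental cells, 0.24 ± 0.09, was not called (adjusted p = 0.0782). A second GRB2 probe set differed by 0.37, and the call was made when all probe sets were averaged, with centring of the arrays, with an intensity trend and without probe sets prone to cross-hybridization.

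SOS2, a RAS exchange factor closely related to SOS1, fell in both resistant lines. In parental cells its signal was 7.38 without an agent, 7.75 with crizotinib and 7.86 with ceritinib. In LR2 it was 6.85, 7.50 and 7.37, and in LR3 7.01 and 7.16 (ceritinib). For each agent the array of the resistant line was below the parental one, although the treated LR2 arrays, at 7.50 and 7.37, lay close to the untreated parental array. The differences were -0.42 ± 0.10 in LR2 (1.34-fold lower, adjusted p = 0.0182, 3 of 3 pairs) and -0.49 ± 0.11 in LR3 (1.41-fold lower, adjusted p = 0.0202, 2 of 2 pairs). Both are measured against the same parental arrays. All 3 probe sets were lower, by -0.42 to -0.15 in LR2 and by -0.49 to -0.20 in LR3. The LR2 call was lost without the untreated parental array (-0.43, adjusted p = 0.0566), without the untreated LR2 array (-0.33, 0.0906), without LR2 with ceritinib (-0.44, 0.0604) and with no agent term. The LR3 call was lost without the untreated parental array (-0.50, adjusted p = 0.0662), without parental ceritinib (-0.40, 0.0584), without LR3 ceritinib (-0.32, 0.197) and with no agent term. SOS1 was lower in LR3 than in LR2 by -0.54 ± 0.15 (adjusted p = 0.0417). That call was lost in 11 of 17 alternatives, among them both scalings and the fits without either crizotinib array (-0.52), LR2 with ceritinib (-0.60), untreated LR2 (-0.54) or LR3 with ceritinib (-0.28, adjusted p = 0.37), and against parental cells the difference of LR3, -0.43 ± 0.15, was not called (adjusted p = 0.0848).

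The phosphatase PTPN11 (SHP2, which promotes RAS activation downstream of receptors) varied little, with 8.96 to 9.02 in parental cells, 9.00 to 9.08 in LR2 and 9.02 to 9.10 in LR3. Its difference was 0.05 ± 0.07 in LR2 (95% interval -0.11 to 0.21) and 0.08 ± 0.08 in LR3 (-0.11 to 0.26). The docking protein GAB1 had signals of 5.19 without an agent, 5.56 with crizotinib and 5.72 with ceritinib in parental cells, of 4.55, 5.39 and 5.26 in LR2, and of 5.13 and 4.92 in LR3. It was near the floor throughout, and the differences of -0.42 ± 0.17 in LR2 and -0.37 ± 0.20 in LR3 were not called (adjusted p = 0.108 and 0.221). Its relative GAB2 ranged from 5.17 to 5.32 in parental cells, 5.25 to 5.72 in LR2 and 5.41 to 5.52 in LR3, also near the floor and without a call.

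Among the proteins that restrain the pathway, PEBP1 set LR2 apart from the other lines. PEBP1, also called RKIP, binds RAF and inhibits its action on MEK. In parental cells its signal was 6.02 without an agent and 6.55 and 6.56 with crizotinib and ceritinib. In LR2 it was 6.80, 6.89 and 6.99, and in LR3 5.97 and 6.29 (ceritinib). Every LR2 array was above every array of the other lines. PEBP1 rose in LR2 by 0.52 ± 0.09 against parental cells (1.43-fold, adjusted p = 0.00695, 3 of 3 pairs; 0.55 without LR2 with ceritinib, adjusted p = 0.0282, and not called with no agent term, adjusted p = 0.0618), and it was lower in LR3 than in LR2 by -0.72 ± 0.11 (1.65-fold, adjusted p = 0.00379, 2 of 2 pairs). Between LR3 and parental cells the difference was -0.20 ± 0.11 (95% interval -0.46 to 0.05) and was not called. It is read by 1 probe set, of a class that can match several transcripts. NF1, neurofibromin, the GTPase-activating protein for RAS, had signals of 7.69 to 7.78 in parental cells, 7.70 to 7.89 in LR2 and 7.93 and 7.95 in LR3. Both LR3 arrays were above all others, but the difference of 0.18 ± 0.08 from parental cells was not called (adjusted p = 0.175), and of its 21 probe sets the 4 that exceeded the floor in at least 2 arrays were all higher in LR3. SHOC2, a scaffold that helps to activate RAF, ranged from 8.45 to 8.67, 8.59 to 8.69 and 8.39 to 8.45 in the 3 lines without a call.

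Of the SRC family kinases, which phosphorylate adaptors and receptors upstream of RAS, YES1 had the widest line difference of all tested members. Its signal was 8.71 without an agent, 8.77 with crizotinib and 8.91 with ceritinib in parental cells, 8.83, 9.05 and 8.98 in LR2, and 8.03 and 8.08 (ceritinib) in LR3. The LR3 arrays lay below all others. YES1 fell in LR3, by -0.72 ± 0.09 against parental cells (1.65-fold, adjusted p = 0.00154) and by -0.88 ± 0.09 against LR2 (1.84-fold, adjusted p = 0.000683), in 2 of 2 pairs each, and both calls were kept in all 17 alternatives run. It is read by 1 probe set. SRC ranged from 5.87 to 5.98 in parental cells, 5.99 to 6.21 in LR2 and 5.99 to 6.01 in LR3, and LYN from 7.31 to 7.44, 7.10 to 7.21 and 7.05 to 7.25. All LR2 arrays of SRC were above the parental ones and all LR2 arrays of LYN were below them. These differences, 0.19 ± 0.07 and -0.21 ± 0.08, were not called (adjusted p = 0.0971 and 0.1).

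The RSK kinases are substrates of ERK. RPS6KA3 (RSK2) had signals of 8.15 without an agent, 8.02 with crizotinib and 7.87 with ceritinib in parental cells, of 8.41, 8.28 and 8.57 in LR2, and of 8.28 in both LR3 arrays. All LR2 arrays exceeded all parental arrays. RPS6KA3 rose in LR2 by 0.41 ± 0.10 (1.33-fold, adjusted p = 0.0216, 3 of 3 pairs), and both of its probe sets were higher, by 0.30 and 0.41. The call was lost without any 1 of the parental crizotinib, LR2 crizotinib, LR2 ceritinib or untreated LR2 arrays, with values of 0.48, 0.48, 0.30 and 0.46 in that order (adjusted p of 0.0535 to 0.0876). In LR3 the difference was 0.23 ± 0.11 (adjusted p = 0.187). RPS6KA1 (RSK1) ranged from 6.84 to 7.03, 6.92 to 7.16 and 7.10 to 7.14 in the 3 lines without a call.

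After 6 h with an inhibitor, SOS1 had the largest difference from untreated cells of the 22 tested members, with either agent. SOS1 is the main RAS exchange factor recruited by GRB2. In parental cells its signal was 8.46 without an agent, 9.56 with crizotinib and 9.39 with ceritinib. In LR2 it was 8.77, 9.78 and 9.22, and in LR3 it was 8.39 without an agent and 8.56 with ceritinib. All 4 treated arrays of parental cells and LR2 lay above all 3 untreated arrays, and the treated LR3 array lay among the untreated ones. SOS1 rose with crizotinib by 0.97 ± 0.15 (1.96-fold, adjusted p = 0.0298, higher in 2 of 2 lines), and it was the 1 member of 22 called with crizotinib, beside 2.82% of all tested genes called higher and 0.94% called lower. Of all genes called with crizotinib 75% were higher, and 63.6% after quantile normalization and 61.4% after median centring; SOS1 remained called in both. The call was lost when any 1 of 5 arrays was left out, namely the untreated or crizotinib array of parental cells or any LR2 array, with values of 0.79 to 1.04 and adjusted p of 0.0504 to 0.359. It was kept without probe sets prone to cross-hybridization, at 0.68.

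With ceritinib no gene of the 10527 was called by limma (0%), while 2017 had an unadjusted p under 0.05, 3 of them members. These 3 were SOS1, SOS2 and PEBP1. Their differences over the 3 lines were 0.52 ± 0.13 for SOS1, 0.38 ± 0.10 for SOS2 and 0.35 ± 0.09 for PEBP1, with adjusted p of 0.11, 0.11 and 0.119, and each was higher with ceritinib in 3 of 3 lines. With crizotinib the uncalled differences of SOS2, GAB1 and PEBP1 were 0.45 ± 0.11, 0.47 ± 0.20 and 0.30 ± 0.11 (adjusted p = 0.0632, 0.203 and 0.147), each higher in 2 of 2 lines. The crizotinib difference of SOS2 was called in 7 of 16 alternatives, among them the mean of all probe sets and the fit without LR3. The other members moved less, and the median over all 22 was 0.06 with either agent, beside 0.02 and 0.04 over all tested genes with crizotinib and ceritinib. Between the agents at the same dose and time no gene was called (0%; 637 at an unadjusted p under 0.05, of which 2 were members). SOS1 was lower with ceritinib than with crizotinib by -0.45 ± 0.15 (95% interval -0.81 to -0.10, adjusted p = 0.771), and RPS6KA1 higher by 0.21 ± 0.08 (0.03 to 0.38, adjusted p = 0.79). The difference of SOS2 between the agents was -0.07 ± 0.11 (-0.33 to 0.19). Leaving out the parental ceritinib array called SOS1 between the agents, at an adjusted p of 0.0147.

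**Figure D3:**
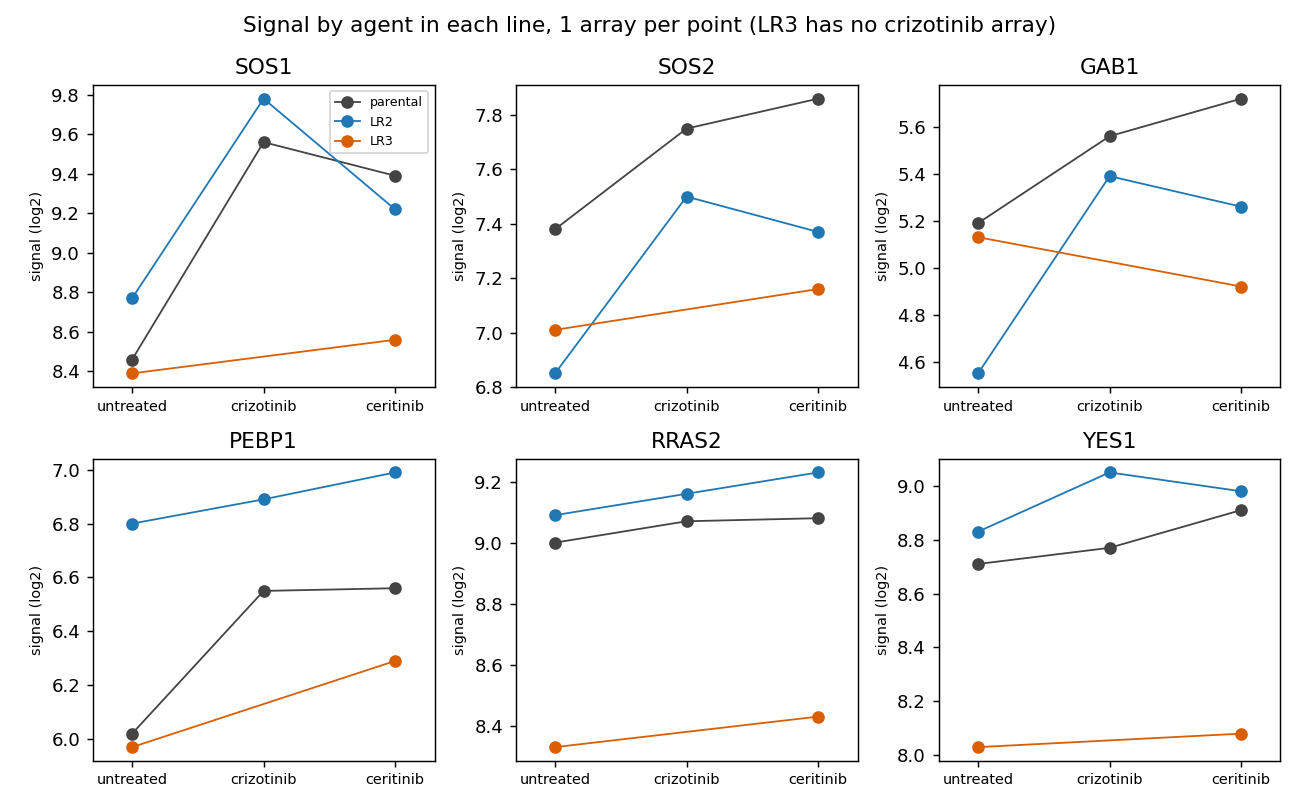
Signal (log2, vertical axis, a different range in each panel) of 6 core genes without an agent, with crizotinib and with ceritinib, with 1 array per point and 1 line of points per cell line. SOS1 climbs from 8.46 to 9.56 and 9.39 in parental cells and only from 8.39 to 8.56 in LR3, while RRAS2 and YES1 stay low in LR3 with and without ceritinib.

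The responses of SOS1 and SOS2 were read by several probe sets, of which SOS1 has 3 above the floor in at least 2 arrays and 1 that is not. All 4 SOS1 probe sets were higher with crizotinib, by 0.81 to 1.13 in parental cells and by 0.59 to 1.04 in LR2. With ceritinib they were higher by 0.46 to 0.93 in parental cells and by 0.07 to 0.36 in LR3, and in LR2 3 of 4 were higher, over a range of -0.14 to 0.56, the one that was lower being below the floor in all 8 arrays. The ranges of parental cells and LR3 with ceritinib did not overlap. All 3 SOS2 probe sets were higher in every treated array, by 0.37 to 0.71 and 0.35 to 0.61 in parental cells with crizotinib and ceritinib, by 0.14 to 0.65 and 0.01 to 0.52 in LR2, and by 0.15 to 0.24 in LR3 with ceritinib. Probe sets of a gene share the RNA of each array and are not replicates.

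**Figure D4:**
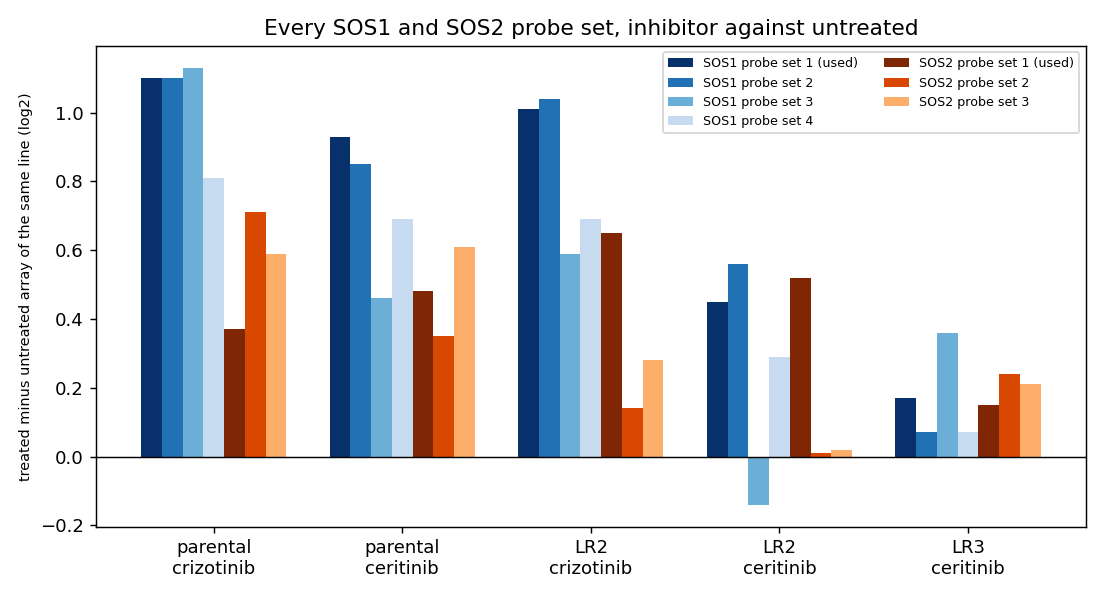
Treated minus untreated signal (log2, vertical axis) for every SOS1 (blue) and SOS2 (orange) probe set in each line and agent, 1 array against 1 array, without an error bar. All SOS1 bars reach 0.81 or more in parental cells with crizotinib and 0.36 at most in LR3 with ceritinib, and 1 SOS1 bar, in LR2 with ceritinib, is below 0.

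Responses within each line were fitted with both inhibitors as 1 condition, since no condition had a second array. No gene was called in any line or between lines (0% in each of the 5 comparisons). Unadjusted p was under 0.05 for 1849 genes in parental cells (4 members), 1015 in LR2 (3), 499 in LR3 (2), 251 for LR2 minus parental cells (1) and 505 for LR3 minus parental cells (1). SOS1 responded by 1.01 ± 0.24 in parental cells, 0.73 ± 0.24 in LR2 and 0.17 ± 0.27 in LR3. The LR3 response minus the parental one was -0.84 ± 0.36 (95% interval -1.75 to 0.06, adjusted p = 0.91), so a smaller SOS1 response in LR3 was not shown. PEBP1 responded by 0.54 ± 0.10, 0.14 ± 0.10 and 0.32 ± 0.12 in the 3 lines, and SOS2 by 0.43 ± 0.11, 0.58 ± 0.11 and 0.15 ± 0.13. GAB1 responded by 0.45 ± 0.12 in parental cells, 0.78 ± 0.12 in LR2 and -0.21 ± 0.14 in LR3, near the floor. It passed the filter only through treated arrays, so its values are a description of a dim signal. GAB1 is among the 4 members counted above in parental cells and the 3 in LR2. It is also the 1 member counted for LR3 minus parental cells, so these counts are not independent of the filter. In parental cells and LR2, SOS1, SOS2 and PEBP1 had a higher signal in every treated array than in the untreated array of the line. LR3 was treated with ceritinib alone, so in this fit its response is set against one that also holds crizotinib. With ceritinib alone the SOS1 array differences were 0.93 in parental cells, 0.45 in LR2 and 0.17 in LR3, 1 array against 1 array and without a test.

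Transcripts that ERK activity sustains gave a readout beside the members. Of 22 such genes, all tested, 5 fell with crizotinib (22.7%; all genes, 0.94% lower) and none rose. SPRY4, a Sprouty inhibitor of the pathway, fell by 3.25 ± 0.65 (adjusted p = 0.0416), PHLDA1 by 2.96, HMGA2 by 2.70 and EPHA2 by 2.46. With crizotinib the signals of SPRY4 (3.81 in both lines), HMGA2 (5.10 and 3.89) and EPHA2 (4.42 and 4.65) were below the floor, where the size of a fall is poorly measured. The median difference of the list was -1.44 with crizotinib and -0.59 with ceritinib, and with ceritinib none was called, 6 having an unadjusted p under 0.05. The ERK phosphatase DUSP6 had signals of 12.41 without an agent, 7.93 with crizotinib and 7.39 with ceritinib in parental cells. In LR2 it had 11.79, 7.26 and 11.51, and in LR3 12.17 and 12.04 (ceritinib). The 3 arrays with DUSP6 under 8 were thus both treated parental arrays and LR2 with crizotinib, and its crizotinib difference of -4.09 ± 1.06 was not called (adjusted p = 0.0667). SPRY4 followed the same order, at 7.07, 3.81 and 4.08 in parental cells, 7.54, 3.81 and 7.23 in LR2, and 7.52 and 7.35 in LR3. ETV5, an ETS factor induced by ERK, was at 8.01, 6.41 and 6.37 in parental cells, 8.04, 6.19 and 7.97 in LR2, and 7.67 and 7.57 in LR3. SOS1 was highest in those 3 arrays. In LR2 with ceritinib DUSP6, SPRY4 and ETV5 differed from the untreated LR2 array by -0.28, -0.31 and -0.07, and SOS1 by 0.45. Against parental cells 1 gene of the ERK list was called higher in LR2 and none lower (all genes, 12.8% and 9.68%), and in LR3 1 was called higher and 1 lower (all genes, 9.53% and 12.1%). SPRY2 rose in LR2 by 1.33 ± 0.31. Its signal was 8.58 without an agent, 7.07 with crizotinib and 7.03 with ceritinib in parental cells, and 9.26, 7.99 and 9.42 in LR2. The gap between these lines was thus widest with ceritinib, in the LR2 array with the raised median. ETV4 rose in LR3 by 0.85 ± 0.16, and by 0.58 ± 0.16 against LR2 (adjusted p = 0.038). HMGA2 fell in LR3 by 1.85 ± 0.55, but both LR3 arrays (5.24 without an agent and 4.74 with ceritinib) and both treated parental arrays (5.10 and 5.18) were below the floor, and of the arrays compared the untreated parental one alone (8.16) was above it.

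Of a wider list of 81 other RAS and MAPK pathway genes, 70 were measured and 54 tested. Against parental cells 8 rose and 6 fell in LR2 (25.9%; all genes, 12.8% higher and 9.68% lower), and 5 rose and 7 fell in LR3 (22.2%; all genes, 9.53% and 12.1%), shares near those of all tested genes. Against LR2 3 were higher and 6 lower in LR3 (16.7%; all genes, 7.29% and 12.3%). The largest were GRB10, an adaptor that binds receptor tyrosine kinases, which fell by 0.88 ± 0.10 in LR2 and by 1.95 ± 0.12 in LR3 (adjusted p = 0.00121 and 9.39e-05), and the SRC family kinase LCK, which fell by 1.11 ± 0.16 and 1.33 ± 0.19 (adjusted p = 0.00304 and 0.00307). GRB10 had signals of 8.30 to 8.80 in parental cells, 7.36 to 7.74 in LR2 and 6.52 and 6.74 in LR3, with no overlap. PAG1, a membrane adaptor that recruits the SRC inhibitor CSK, fell by 0.65 ± 0.17 and 0.82 ± 0.20, the SRC-related kinase FRK fell by 0.70 ± 0.08 in LR2, and RGL2, a RAL exchange factor bound by RAS, rose by 0.84 ± 0.08 in LR3. Against LR2, RASSF1, GRB14 and the ubiquitin ligase CBL were lower in LR3 by -0.90 ± 0.18, -0.69 ± 0.11 and -0.59 ± 0.10. With crizotinib 4 of the 54 rose and none fell (7.41%; all genes, 2.82% higher and 0.94% lower): MAP3K3 by 0.84 ± 0.10, RALGDS, a RAL exchange factor, by 0.75 ± 0.13, RPS6KA5 (MSK1) by 0.52 ± 0.09 and GAREM1, an adaptor, by 0.45 ± 0.08. The list's median difference was 0.06 in LR2, 0.01 in LR3 and 0.05 with crizotinib, close to the 0.02, 0.01 and 0.02 of all tested genes.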

How the data were processed

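RNA of 8 samples was labelled with biotin and read on 1 single-colour array each. The authors deposited log2 signals per probe set, made with RMA per the submitters' processing notes; its version and the arrays normalized together are not given in the sources used here. They were used without further scaling. The table held 49395 probe sets, 102 of them controls. The platform's probe table gave 1 gene symbol to 44988, several to 1832 and none to 2473. A gene was represented by its brightest probe set and tested where this exceeded 5.36 in at least 2 arrays, which left 10527 of 18132 genes (58.1%). Line and agent comparisons came from limma 3.58.1 (R 4.3.3, lmFit and eBayes) with line and agent as terms over 8 arrays, with 3 residual degrees of freedom. Because LR3 lacks a crizotinib array, an estimate can differ from the average of agent-matched arrays. Responses within lines came from a model of line by inhibitor or none (2 residual degrees of freedom). That residual is the difference between the crizotinib and ceritinib arrays of parental cells and of LR2. The fits were tested on simulated data. The simulated noise was independent for each gene and array, so this does not bear on variation between cultures. Scaling, the filter, the probe set rule, the model and each array were varied in turn. Promoters were matched by symbol. The members, lists and the rule for named genes (all members, and per comparison up to 4 called genes of each other list with DUSP6, SPRY4 and ETV5) were chosen with earlier results of these data known. The number of arrays limits the precision.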

Additional observations from a re-analysis of the deposited data

Results flagged for a closer look

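In 9 members both treated parental arrays differed from the untreated parental array in one direction and LR3 with ceritinib in the other. The LR3 response minus the parental response was -0.66 for GAB1, -0.27 for MAP2K2, -0.24 for HRAS, -0.22 for SHOC2, 0.20 for RRAS, 0.15 for RPS6KA1, -0.13 for PTPN11, -0.10 for SRC and 0.09 for SHC1, in log2 units. SHC1 also ran in opposite directions in LR2 and parental cells, with a response difference of 0.17. None of these differences was called by limma (adjusted p of 0.91 to 0.998), and the opposite directions themselves were not tested. The share of all tested genes with such opposite directions was not counted, so the number of members is not a result about them. Each direction rests on 1 array against 1, and some differences were as small as -0.02 (RPS6KA1 in parental cells with ceritinib, SRC in LR3). GAB1, a docking protein for PI3K and SHP2, was higher by 0.37 and 0.53 in the treated parental arrays and lower by -0.21 in LR3 with ceritinib, with signals on either side of the floor.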

How the results depend on the processing

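No member's call changed direction in any alternative run. Between LR3 and parental cells the count of called members was 5 to 7 over 9 alternatives, and leaving out 1 array at a time gave 3 to 6, with 3 without LR3 ceritinib. Between LR2 and parental cells, 3 called members became 5 with quantile normalization and 5 with median centring, which added SHC1 and LYN, and 1 with no agent term; leaving out 1 array gave 1 to 4, with 1 without LR2 ceritinib or untreated LR2. Between LR3 and LR2, 7 became 3 without probe sets prone to cross-hybridization, and leaving out 1 array gave 4 to 7, with 4 without untreated LR2 or LR3 ceritinib. With crizotinib, 1 became 2 with only genes above the floor in all arrays, 2 with the mean of all probe sets, 2 with an intensity trend and 3 without both LR3 arrays; leaving out 1 array gave 0 to 3. Ceritinib against crizotinib gave 0 to 1 when 1 array was left out, with 1 without parental ceritinib. Without probe sets prone to cross-hybridization, RRAS2, PEBP1 and MAPK3 had no probe set left and were not tested. SOS1 lost its call between LR3 and LR2 there (-0.3, adjusted p = 0.147 by limma). The cause of the other shifts was not tested. RRAS2 and YES1 in LR3, against both other lines, and SHC1 and PEBP1 in LR3 against LR2 were called in every alternative run. MAPK3 in LR3 against parental cells was too, though narrowly where an LR3 array was left out. For RRAS2, PEBP1 and MAPK3 there were 16 alternatives, none without probe sets prone to cross-hybridization. Of all genes, 2369 were called in LR2 and 2274 in LR3 against parental cells, 2064 in LR3 against LR2 and 396 with crizotinib. Leaving out an array reduced these to as few as 1146, 632 (without LR3 ceritinib), 710 (without LR3 ceritinib) and 0, and without an agent term LR2 against parental cells had 1478. Crizotinib gave 151 with no filter, 258 with quantile normalization, 601 with genes above the floor in all arrays, 797 with an intensity trend and 1529 without parental ceritinib. Ceritinib gave 0, but 3 without LR2 ceritinib, 57 with genes above the floor in all arrays, 22 without probe sets prone to cross-hybridization and 61 with an intensity trend, and against crizotinib 401 without parental ceritinib. Within a single line, the response to ceritinib alone left no residual degrees of freedom and gave values without a test.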
